A study of Mus musculus with 5 samples.

Results

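Expression of 9 genes of bone morphogenetic protein (BMP) and transforming growth factor beta (TGF-beta) signalling was examined in mouse gastric organoids: the ligand genes Bmp2, Bmp4, Bmp7 and Tgfb2, the inhibitory SMAD genes Smad6 and Smad7, and the Id genes Id1, Id2 and Id3. The genes were taken as every probe whose transcript accession maps to 1 of these symbols, which gave 12 probes and 9 of the 23779 genes named on the array. All 9 genes were among the 17583 tested, and the main probe of each (the brightest on average) was well above background on all 5 arrays. "Well above background" is the scanner software's own flag for a spot.

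BMP and TGF-beta ligands are secreted dimers that bind paired serine/threonine kinase receptors. BMP receptors phosphorylate SMAD1, SMAD5 and SMAD8, TGF-beta receptors phosphorylate SMAD2 and SMAD3, and both groups enter the nucleus with SMAD4 to regulate transcription. The Id genes are classical direct targets of BMP signalling, and Smad6 and Smad7 are induced feedback inhibitors. In the gastrointestinal mucosa BMP signals favour differentiation over stem cell renewal, and organoid media therefore commonly contain Noggin, a secreted protein that binds BMP ligands and keeps them from their receptors.

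The control was a gastric organoid line from mice with a floxed Trp53 gene (Trp53flox/flox), transduced with the control vector pLKO.1 carrying a hairpin against luciferase (shLuc) and sampled ahead of transplantation. The remaining 4 lines had been recovered from subcutaneous tumours: 2 with Trp53 loss and a hairpin against Cdh1 (shCdh1 hairpins 1 and 2), 1 with Apc580D and Trp53 loss, and 1 with Pik3caH1047R and Trp53 loss. All 5 were stomach samples labelled female, and the labels give no age. All were grown in the same serum-free medium, which held 100 ng/ml Noggin and 250 ng/ml R-spondin1, with EGF at 50 ng/ml, the GSK3 inhibitor CHIR-99021 at 2.5 μM, Y27632 at 10 μM and Jagged-1 at 1 μM, so every level below was measured with a BMP antagonist present. According to the design text the study held further tumour-derived organoids, which were not analysed here. Each sample is 1 array. The labels name no separate cultures or animals for the hairpin pair, so the p-values measure only the spread between these samples. In the all-tumour comparison that spread is among the 4 tumour-derived arrays, which differ in genotype. In the other comparisons it is that of the hairpin pair, where hairpin and technical differences cannot be told apart. In a contrast with the control, the loss of Trp53, the added lesion and the passage through a tumour cannot be told apart.

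Of the 59305 spots of an array, 61.8% to 65.3% passed the background flag, and no spot was saturated. Cdh1 was at 4.39 in the control, 0.07 and 0.26 with hairpins 1 and 2, 4.48 in Apc580D and 4.58 in Pik3caH1047R, on the log2 scale relative to the array's 75th percentile that is used for every level here. Trp53 was at 0.85 in the control and between −5.86 and −4.86 in the tumour-derived samples. One array went against its labelled sex: Pik3caH1047R had Xist, which coats the inactive X chromosome, not well above background (−8.14, against −0.90 to −0.69 on the other 4) and Eif2s3y, a Y-linked gene, at 1.35 (−8.08 to −7.36 on the others). Why this array differs from its label was not tested, and the all-tumour values of the 9 genes are given with and without it, as are those of the pathway lists by their counts and where a gene's fold moved by over 1.5 times. All 12 gastric epithelial markers were well above background on all 5 arrays, with a summed linear level of 559.6 to 843.8, highest in the control. Of 8 fibroblast markers, 2 were above it in the control, 1 and 3 with hairpins 1 and 2, 5 in Apc580D and 2 in Pik3caH1047R. The summed linear level of those 8 was 0.0834, 0.104, 0.137, 0.268 and 0.128 in that order, and Lum, Pdgfrb and Col3a1 were not above background on any array. Endothelial markers numbered 2 or 3 of 5 (summed level 0.0865 to 0.234, highest in the control), smooth muscle and pericyte markers 3 to 5 of 5 (10.4 to 15.1), leukocyte markers 4 to 6 of 7 (11.7 in the control and 16.0 to 21.0 in the others) and adipocyte markers 2 or 3 of 4 (0.284 to 0.726). The leukocyte sum came from Cd68, Itgam, Csf1r and Cd3e, which were also above background in the control, while Lyz2 was above it on no array and Ptprc, the pan-leukocyte gene, only with both hairpins and in Apc580D. The part of other cell types in the values below was not tested. In bulk RNA, fewer cells of a type and less RNA per cell cannot be told apart.

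Promoter sequences of 5 of the 9 genes were found in the RefSeq table (Bmp4, Tgfb2, Smad6, Id2 and Id3). The following 3 are shown because they belong to the genes with the largest differences from the control (Bmp4 and Tgfb2) and with the smallest adjusted p (Smad6). Each runs 5′ to 3′ on the gene's strand from 250 bases before the annotated start to base 30 from the start on, on GRCm38.p6, and all 3 lie on the minus strand: chr14:46390640-46390919 for Bmp4, chr1:186705960-186706239 for Tgfb2 and chr9:64022030-64022309 for Smad6. Capitals mark the SMAD box (GTCT, or AGAC on the other strand) and the TATA box (TATAAA, searched on both strands).
Bmp4: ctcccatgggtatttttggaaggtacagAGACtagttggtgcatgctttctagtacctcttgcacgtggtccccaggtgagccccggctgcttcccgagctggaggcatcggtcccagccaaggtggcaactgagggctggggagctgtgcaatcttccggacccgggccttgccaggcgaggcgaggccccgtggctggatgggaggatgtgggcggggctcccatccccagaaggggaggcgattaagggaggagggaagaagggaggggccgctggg
Tgfb2: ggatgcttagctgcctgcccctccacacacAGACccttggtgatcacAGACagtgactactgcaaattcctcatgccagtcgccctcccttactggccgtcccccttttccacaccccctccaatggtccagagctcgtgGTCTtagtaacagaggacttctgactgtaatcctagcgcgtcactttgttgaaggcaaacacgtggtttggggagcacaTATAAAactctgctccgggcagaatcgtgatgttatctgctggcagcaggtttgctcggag
Smad6: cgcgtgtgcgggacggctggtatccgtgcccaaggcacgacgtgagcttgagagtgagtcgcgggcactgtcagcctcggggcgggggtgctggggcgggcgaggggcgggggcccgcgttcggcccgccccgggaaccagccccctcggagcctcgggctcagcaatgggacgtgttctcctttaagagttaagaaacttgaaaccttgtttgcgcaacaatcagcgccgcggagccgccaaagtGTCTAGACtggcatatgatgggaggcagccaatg
The Bmp4 window held 1 SMAD box, 222 bases before the start, and the Tgfb2 window held 3, at 220, 203 and 110 bases before it, with a TATA box 31 bases before the start. In Smad6 the 2 boxes lie side by side and form the palindrome GTCTAGAC, which begins 4 bases before the annotated start. A single SMAD box is common: 86.2% of 32851 promoter windows of this length held at least 1. The TATA box occurred in 13.1% of windows and the palindrome in 0.192%, or 63 windows. The Id3 window held 3 SMAD boxes and the Id2 window 1, and Id2 alone of the 5 held the GC-rich motif GGCGCC, 231 bases before the start (10.9% of windows). A match is a description of the letters, not a site.

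**Figure D1:**
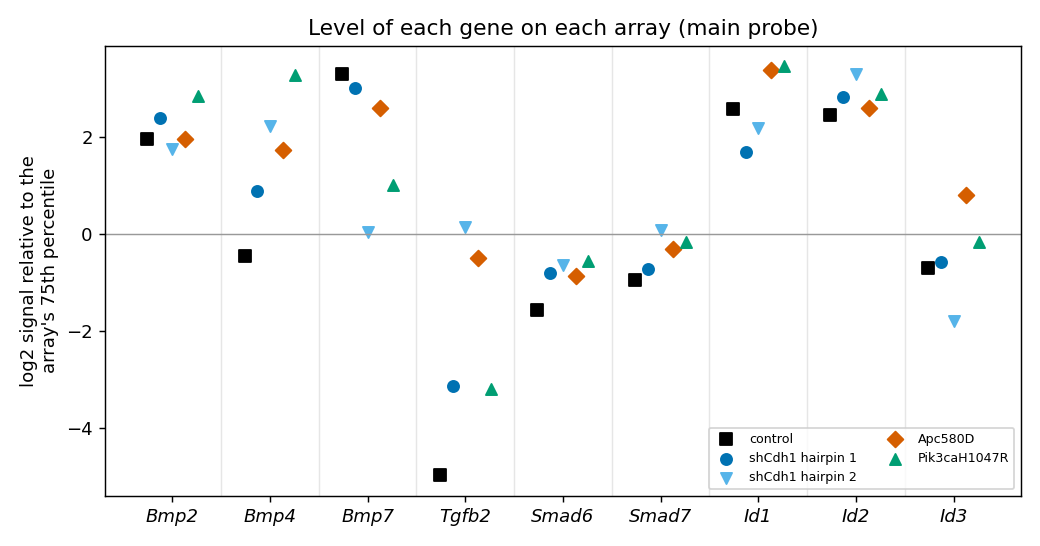
Level of each of the 9 genes on each of the 5 arrays by its main probe, as log2 signal relative to the array's 75th percentile (vertical axis); each symbol is 1 array. The control (black squares) is lowest for Bmp4 (−0.45), Tgfb2 (−4.97), Smad6 (−1.57), Smad7 (−0.94) and Id2 (2.45), and highest for Bmp7 (3.30). Heights are not comparable between genes, since each probe has its own response.

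Of the ligand genes, Tgfb2, Bmp4 and Bmp7 differed from the control by more than any other of the 9 genes in the all-tumour mean, and Bmp2 by little. Bmp4, which encodes a BMP ligand made by mesenchyme and some epithelia, was at −0.45 in the control, 0.88 and 2.23 with hairpins 1 and 2, 1.73 in Apc580D and 3.28 in Pik3caH1047R. The control lay below all 4 tumour-derived arrays, the Pik3caH1047R array was the highest, and Apc580D lay within the shCdh1 group (1.56 ± 0.96, SD, n = 2). Against the control these levels were 2.51-fold and 6.43-fold higher with hairpins 1 and 2, 4.53-fold higher in Apc580D and 13.2-fold higher in Pik3caH1047R. The mean of the 4 exceeded the control by 2.48 ± 0.89 on the log2 scale (SE, 5.58-fold, limma adjusted p = 0.355), which did not pass the threshold of 0.05. The 95% confidence interval ran from 0.17 to 4.79. Without the Pik3caH1047R array the difference was 2.06 (limma adjusted p = 0.416), higher in 3 of 3 tumour-derived samples. Pik3caH1047R alone against the control gave 3.73 ± 0.85 (limma adjusted p = 0.382), an estimate whose error comes from the hairpin pair.

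A second Bmp4 probe with a lower signal gave the same order of arrays: −2.43 in the control, −0.82, 0.31, −0.14 and 1.25 in hairpin 1, hairpin 2, Apc580D and Pik3caH1047R. Its folds over the control were 3.05, 6.66, 4.91 and 12.9, close to those of the main probe. The summed fibroblast marker level was also higher on the 4 tumour-derived arrays (0.104 to 0.268, highest in Apc580D) than in the control (0.0834), and its part in the Bmp4 difference was not tested. That sum includes markers not well above background. With hairpin 1 only 1 of the 8 markers was well above background, against 2 in the control.

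Tgfb2, which encodes a TGF-beta ligand secreted in latent form, was at −4.97 in the control, −3.12 and 0.14 with hairpins 1 and 2, −0.50 in Apc580D and −3.20 in Pik3caH1047R. Hairpin 2 and Apc580D formed a high pair, hairpin 1 and Pik3caH1047R a lower one, and the control was lowest. The folds over the control were 3.59, 34.5, 22.2 and 3.40 in the order hairpin 1, hairpin 2, Apc580D and Pik3caH1047R. These sizes depend on the background correction: with normexp correction of the median spot signal the folds were 1.94, 11.5, 7.99 and 1.78 in that order, and the all-tumour difference was 2.08 (limma adjusted p = 0.483). The 2 hairpin arrays differed 9.61-fold from each other, and only 1.22% of all genes tested differed more within this pair. The all-tumour difference was accordingly imprecise at 3.30 ± 1.53 (limma adjusted p = 0.437), 3.81 without the Pik3caH1047R array (adjusted p = 0.486) and 2.69 without hairpin 2 (adjusted p = 0.511).

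The second Tgfb2 probe was not well above background in the control, so only lower bounds can be given for it: at least 1.77-fold and 18.2-fold higher with hairpins 1 and 2, at least 12.0-fold in Apc580D and at least 2.14-fold in Pik3caH1047R. Its levels on the tumour-derived arrays were −5.24, −1.88, −2.48 and −4.97, with the same arrays forming the high pair.

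**Figure D2:**
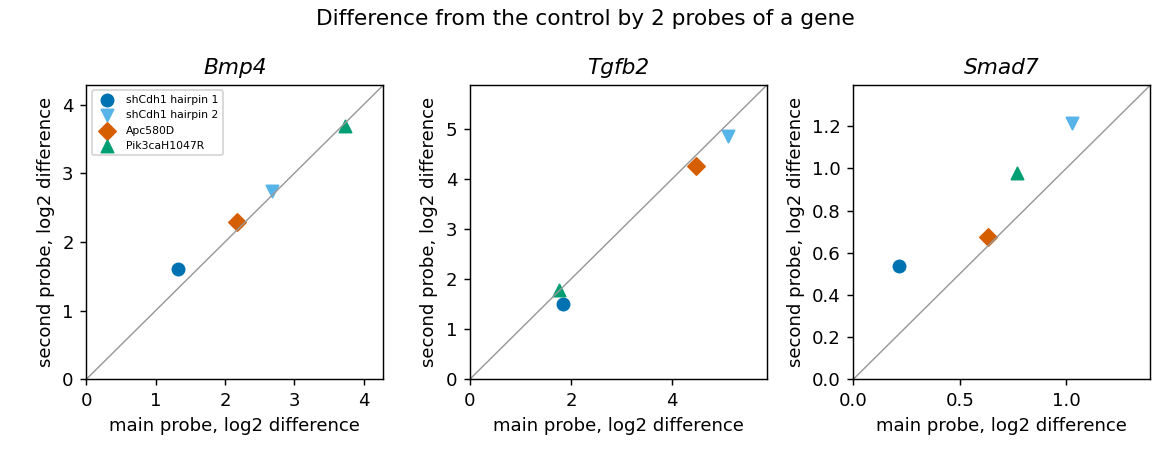
Log2 difference of each tumour-derived array from the control by the main probe (horizontal) and the second probe (vertical) of Bmp4, Tgfb2 and Smad7. The line marks equal differences. For Tgfb2 the second probe was not well above background in the control. Its plotted differences use that dim signal, so the true ones may be larger or smaller. Both probes of each gene give differences above 0 on all 4 arrays, with Pik3caH1047R highest for Bmp4 (13.2-fold and 12.9-fold) and hairpin 2 highest for Tgfb2 and Smad7.

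Bmp7, a BMP ligand expressed in many epithelia, was the 1 gene of the 9 with the control above all 4 tumour-derived arrays. It was at 3.30 in the control, 3.02 and 0.05 with hairpins 1 and 2, 2.61 in Apc580D and 1.01 in Pik3caH1047R. Hairpin 2 and Pik3caH1047R were low, while hairpin 1 and Apc580D lay near the control. The control exceeded them 1.21-fold (hairpin 1), 9.49-fold (hairpin 2), 1.61-fold (Apc580D) and 4.88-fold (Pik3caH1047R). The hairpin pair again stood apart, with hairpin 1 at 7.83 times the level of hairpin 2, and 1.5% of genes tested differed more within the pair. The all-tumour difference of −1.63 ± 1.22 did not pass (limma adjusted p = 0.616; −1.41 and adjusted p = 0.744 without Pik3caH1047R).

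Bmp2, a BMP ligand close in sequence to Bmp4, was at 1.95 in the control, 2.39 and 1.76 with hairpins 1 and 2, 1.97 in Apc580D and 2.84 in Pik3caH1047R. Pik3caH1047R was the highest at 1.85 times the control. The other 3 lay within 1.36-fold of the control on either side, and the sign of the Apc580D difference turned under median centring, under normexp correction and in the authors' deposited table. The all-tumour difference was 0.29 ± 0.46 (limma adjusted p = 0.822), and 0.09 without Pik3caH1047R (adjusted p = 0.946). Bmp2 and Bmp4 were thus both highest in Pik3caH1047R, and by limma neither difference of Pik3caH1047R from the mean of the other tumour genotypes passed (0.82 ± 0.40, adjusted p = 0.968, and 1.63 ± 0.70, adjusted p = 0.957).

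By their main probes, both inhibitory SMAD genes were at most 2.04-fold above the control on every tumour-derived array, with a narrow spread for Smad6 and a wider one for Smad7. Smad6, which encodes an inhibitor acting mainly on the BMP branch, was at −1.57 in the control, −0.80 and −0.64 with hairpins 1 and 2, −0.87 in Apc580D and −0.55 in Pik3caH1047R. The control was the lowest and the 4 others lay within 0.32 of each other. The folds over the control were 1.71 and 1.91 with hairpins 1 and 2, 1.63 in Apc580D and 2.03 in Pik3caH1047R. Smad6 had the smallest adjusted p of the 9 genes in the all-tumour comparison by limma, at 0.28 (0.86 ± 0.23, 1.81-fold, 95% interval 0.26 to 1.46), and did not pass. Without Pik3caH1047R the difference was 0.80 (limma adjusted p = 0.43).

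Smad7, which encodes an inhibitor of both branches, was at −0.94 in the control, −0.73 and 0.08 with hairpins 1 and 2, −0.31 in Apc580D and −0.17 in Pik3caH1047R. The control was lowest again, but hairpin 1 lay only 1.16-fold above it, less than the 1.75-fold gap between the hairpins. Hairpin 2 was 2.04-fold, Apc580D 1.55-fold and Pik3caH1047R 1.71-fold higher than the control. A second, dimmer Smad7 probe gave folds of 1.45, 2.32, 1.60 and 1.97 in the order hairpin 1, hairpin 2, Apc580D and Pik3caH1047R. The all-tumour difference by the main probe was 0.66 ± 0.35 (limma adjusted p = 0.49; 0.62 and adjusted p = 0.642 without Pik3caH1047R).

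**Figure D3:**
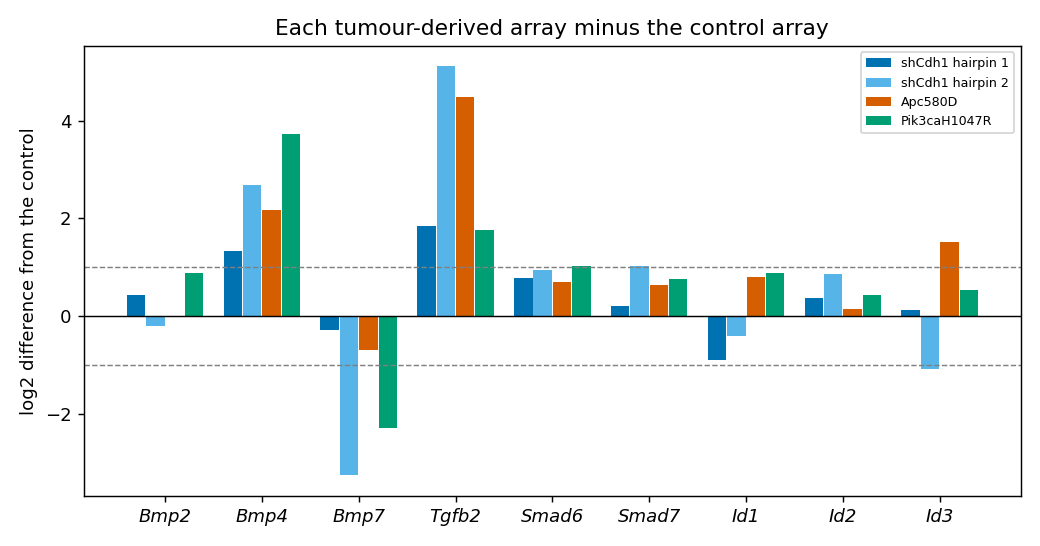
Log2 difference of each tumour-derived array from the single control array (vertical axis) for the 9 genes by their main probes; each bar is 1 array, so there are no error bars, and dashed lines mark 2-fold. Bmp4 and Tgfb2 exceed 2-fold on all 4 arrays, Bmp7 lies more than 2-fold below the control for hairpin 2 and Pik3caH1047R, and Id1 lies below 0 for both hairpins and above 0 for the other arrays.

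The Id genes, which encode helix-loop-helix proteins that bind E proteins and keep them from DNA, were each arranged differently around the control. Id1 was at 2.58 in the control, 1.69 and 2.19 with hairpins 1 and 2, 3.38 in Apc580D and 3.45 in Pik3caH1047R. Both shCdh1 arrays lay below the control and both other tumours above it. The control exceeded hairpins 1 and 2 by 1.85-fold and 1.31-fold, and Apc580D and Pik3caH1047R exceeded the control by 1.74-fold and 1.84-fold. The mean over the 4 was therefore near the control (0.10 ± 0.79, limma adjusted p = 0.97), and −0.16 without Pik3caH1047R (adjusted p = 0.954).

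The shCdh1 pair was 2.78-fold lower in Id1 than the mean of Apc580D and Pik3caH1047R (−1.48 ± 0.30, 95% interval −2.43 to −0.52). The limma adjusted p was 0.623, so the difference did not pass. It was −1.44 without Pik3caH1047R (limma adjusted p = 0.759). With the main scaling, Id1 alone of the 9 genes had both shCdh1 arrays below the control and both other tumours above it. That held for 276 of 17583 genes tested (1.57%). After median centring Id3 had this arrangement too, with a hairpin 1 difference of only −0.03 from the control. The control and both shCdh1 arrays were on 1 slide and Apc580D and Pik3caH1047R on the other, so for Id1 and every other gene the contrast of shCdh1 with the other tumours, and of either of those with the control, cannot be told apart from the slide. Within the slides, shCdh1 differed from the control by −0.64 ± 0.37 (adjusted p = 0.614), and Apc580D differed from Pik3caH1047R by −0.08. With slide as a block in the all-tumour comparison, which then rests on slide 1 alone, the difference was −0.64 for Id1 and −0.47 for Id3, 2.01 for Bmp4 (limma adjusted p = 0.545) and 0.86 for Smad6 (adjusted p = 0.47).

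Id2 was at 2.45 in the control, 2.82 and 3.31 with hairpins 1 and 2, 2.60 in Apc580D and 2.89 in Pik3caH1047R. The control was lowest, but hairpin 2 alone exceeded it by more than 1.36-fold, at 1.81-fold. Apc580D was 1.11-fold higher, and after median centring it lay below the control. The all-tumour difference was 0.46 ± 0.32 (limma adjusted p = 0.589; 0.46 and adjusted p = 0.705 without Pik3caH1047R).

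Id3 was at −0.71 in the control, −0.57 and −1.79 with hairpins 1 and 2, 0.81 in Apc580D and −0.17 in Pik3caH1047R. Hairpin 2 was the lowest array, 2.12-fold under the control, and Apc580D the highest, 2.86-fold above it. Hairpin 1 lay 1.1-fold and Pik3caH1047R 1.45-fold above the control, less than the 2.32-fold gap between the hairpins. The all-tumour difference was 0.27 ± 0.96 (limma adjusted p = 0.927; 0.19 and adjusted p = 0.963 without Pik3caH1047R). The shCdh1 pair was 2.82-fold lower in Id3 than the mean of the other tumours (−1.50 ± 0.54, limma adjusted p = 0.889).

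On the hairpin 1 array, Bmp4 was 2.51-fold above the control while Id1 was 1.85-fold below it, its lowest level, and Id3 1.1-fold above. On the hairpin 2 array, Bmp4 was 6.43-fold above the control while Id1 was 1.31-fold and Id3 2.12-fold below it. On the Pik3caH1047R array, Bmp4 was 13.2-fold, Id1 1.84-fold and Id3 1.45-fold above the control. On the Apc580D array, Bmp4 was 4.53-fold, Id1 1.74-fold and Id3 2.86-fold above it. Bmp4 above the control therefore stood beside lower Id1 on both hairpin arrays and beside higher Id1 on the other 2. Id3 was below the control on the hairpin 2 array alone, and after median centring on the hairpin 1 array as well (−0.03). All 4 sets of values share the single control array. The hairpin arrays were on the control's slide and the other 2 on another, so the split of Id1 cannot be told apart from the slide.

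**Figure D4:**
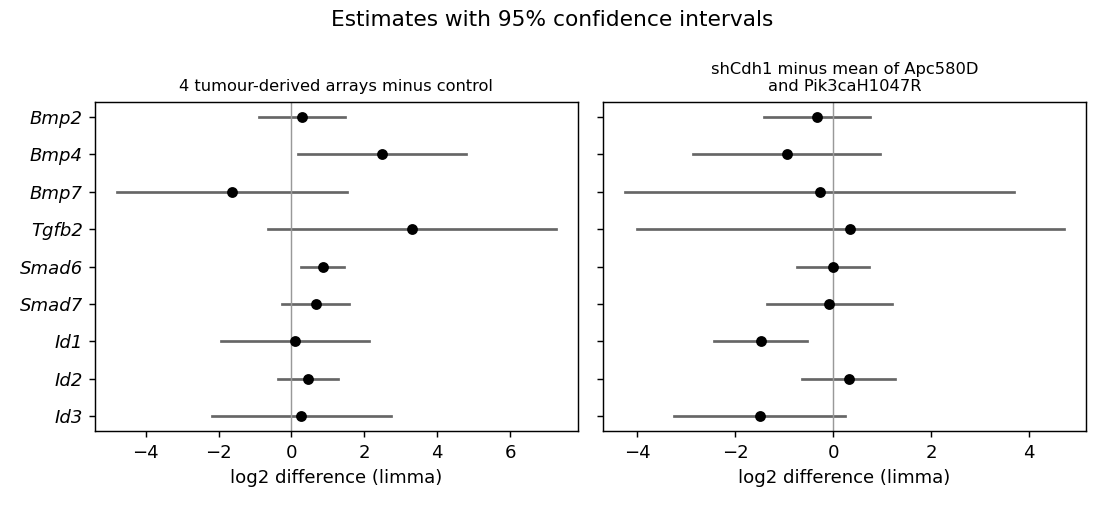
Limma estimates (points) with 95% confidence intervals (lines) for the 9 genes, on the log2 scale: the 4 tumour-derived arrays minus the control (left) and the shCdh1 pair minus the mean of Apc580D and Pik3caH1047R (right). Before adjustment the interval lies off 0 for Bmp4 and Smad6 on the left and for Id1 on the right; after adjustment over 17583 genes none of these passed.

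Across the 9 genes, 0 passed in the all-tumour comparison (limma adjusted p from 0.28 to 0.97), where 21 of all genes tested (0.119%) did. Bmp4 and Smad6 had an unadjusted p below 0.05, that is 2 of 9, against 13.3% of genes tested. In the all-tumour comparison 8 of the 9 were higher and 1 was lower. The median difference of the 9 was 0.46, against 0.06 for all genes, of which 55.4% were higher. The control lay below all 4 tumour-derived arrays for 5 of the 9 (Bmp4, Tgfb2, Smad6, Smad7 and Id2), an arrangement found in 30.2% of genes tested, and above all 4 for Bmp7 (24.4% of genes). After median centring Id2 left this set. In the other 6 comparisons limma passed 0 of the 9 and 0% of all genes tested. Before adjustment, 0 of the 9 had a p below 0.05 for shCdh1 against control (9.74% of genes, 1712) and 0 for Apc580D against control (9.02%, 1586). The corresponding counts were 1, Bmp4, for Pik3caH1047R against control (11.5%, 2030) and 1, Id1, for shCdh1 against the other tumours (6.03%, 1060). For Apc580D and for Pik3caH1047R against the other tumours the counts were 0 of 9, with 1060 and 1008 of all genes.

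Differences of at least 2-fold from the control, between single arrays and with no replicate check, numbered 2 higher (8.69% of genes tested) and 0 lower (8.64%) with hairpin 1. With hairpin 2 they numbered 3 higher (11%) and 2 lower (8.34%), in Apc580D 3 higher (11.3%) and 0 lower (6.49%), and in Pik3caH1047R 3 higher (12.1%) and 1 lower (10%). Bmp4 and Tgfb2 were among the higher on every array (with normexp background correction Tgfb2 was under 2-fold with hairpin 1 and in Pik3caH1047R), joined by Smad7 with hairpin 2, Id3 in Apc580D and Smad6 in Pik3caH1047R. The lower were Bmp7 and Id3 with hairpin 2 and Bmp7 in Pik3caH1047R. Calls near 2-fold depended on the processing. Smad6 in Pik3caH1047R was under 2-fold with quantile normalization (1.99), median centring (1.86), normexp (1.82) and in the authors' table (1.998). Smad7 with hairpin 2 was under it with median centring (1.82), normexp (1.89) and in the authors' table (1.99), and Id3 with hairpin 2 with normexp (1.94). With median centring Id1 with hairpin 1 was 2.06-fold lower than the control. The hairpin pair, the only group with more than 1 array, differed by 0.31 on the log2 scale at the median gene. Of the 9 genes, Smad6 alone differed less than that, by 0.16, and Tgfb2, Bmp7, Bmp4 and Id3 had the largest gaps, at 3.26, 2.97, 1.36 and 1.21.

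Around these members, 98 other genes of the pathway were examined in 7 lists. Of these, 86 were tested and 72 were well above background on all 5 arrays. None passed in any of the 7 comparisons by limma (smallest adjusted p 0.21). In the all-tumour comparison 17 of 86 (19.8%) had an unadjusted p below 0.05, against 13.3% of all genes. Against the control the counts were 11 for shCdh1 (12.8%, against 9.74% of all genes), 18 for Apc580D (20.9%, against 9.02%) and 14 for Pik3caH1047R (16.3%, against 11.5%). Against the other tumours they were 10 for shCdh1 (11.6%, against 6.03%), 11 for Apc580D (12.8%, against 6.03%) and 6 for Pik3caH1047R (6.98%, against 5.73%). In the all-tumour comparison 58 were higher and 28 lower. Without Pik3caH1047R 57 were higher and 29 lower, 0 passed (smallest adjusted p 0.284) and 14 (16.3%) had an unadjusted p below 0.05, against 10.5% of all genes. The control lay below all 4 tumour-derived arrays for 40 (46.5%, against 30.2% of all genes) and above all 4 for 12 (14%, against 24.4%). All of these differences rest on the same single control array as those of the 9 genes. The lists were chosen with earlier results of these data known, so these shares are descriptions and not a test of the pathway.

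Among 16 other ligand genes tested, 9 were higher and 7 lower (median 0.48). Bmp6, a further BMP ligand, differed by 2.22 ± 0.97 (limma adjusted p = 0.414) and Lefty1, an antagonist of Nodal signalling within the family, by 1.22 ± 0.35 (adjusted p = 0.294). Inhba, the activin A subunit, was at −4.12 with hairpin 1, below its control level of −3.39, and above it on the other 3 arrays (1.16 ± 1.26). Tgfb1 was 1.79-fold higher (0.84 ± 0.27, adjusted p = 0.322). Bmp5, Gdf6, Gdf7 and Amh were not well above background on any array and were not tested.

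The 15 receptor and coreceptor genes were the only list with more lower (9) than higher (6) differences, with a median of −0.28. Bmpr1a, a type I BMP receptor, was at 1.85 in the control and 0.85 to 1.36 in the 4 others (−0.70 ± 0.27, limma adjusted p = 0.374). Acvr1, another type I receptor for BMPs, lay the other way, at 1.24 in the control and 1.69 to 2.14 in the others (0.69 ± 0.25, adjusted p = 0.36). Acvrl1 differed by 0.77 ± 0.78, with Pik3caH1047R alone far from the control (−1.56 against −3.64), and Acvr1c, a type I receptor for Nodal and activins, by −0.71 ± 0.62.

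Of 14 secreted antagonists and latency proteins tested, 11 were higher and 3 lower (median 0.57). Nbl1, also called Dan, which encodes a secreted BMP antagonist, was at −1.19 in the control, 1.56 and 2.33 with hairpins 1 and 2, 1.87 in Apc580D and 3.06 in Pik3caH1047R. Its difference of 3.39 ± 0.60 (10.5-fold, limma adjusted p = 0.216) was the largest of the list among genes above background on all arrays. Fst, which encodes the activin-binding protein follistatin, was 9.53-fold higher (3.25 ± 0.98, adjusted p = 0.303). Ltbp3, a latent TGF-beta binding protein, was 3.54-fold higher (1.83 ± 0.40, adjusted p = 0.241) and Chrdl2, a chordin-like BMP antagonist, 2.48-fold higher (1.31 ± 0.51, adjusted p = 0.374). Chrdl1, Grem1, Bmper and Sostdc1 were not tested for lack of signal.

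For other SMAD genes and regulators, 12 of 15 were higher and 3 lower (median 0.31). Tgif2 and Tgif1, homeodomain corepressors of SMAD-driven transcription, were 6.40-fold higher (2.68 ± 0.58, limma adjusted p = 0.241) and 2.33-fold higher (1.22 ± 0.30, adjusted p = 0.262). Skil, which encodes the SMAD corepressor SnoN, differed by 0.80 ± 0.35 and Smad3 by 0.75 ± 0.26 (adjusted p = 0.414 and 0.344). For Tgif2, Tgif1, Skil and Smad3 the control lay below all 4 tumour-derived arrays. Smad9 was not tested.

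Of 11 other BMP target genes tested, 9 were higher and 2 lower (median 1.03), where 55.4% of all genes tested were higher. Only 7 of the 11 were well above background on all 5 arrays, so the count and median rest partly on dim signals. Gata3, a zinc finger transcription factor, was at −4.80 in the control, −2.91 and −0.80 with hairpins 1 and 2, −1.57 in Apc580D and 2.46 in Pik3caH1047R. Its arrays stood in the same order as those of Bmp4. Several other genes of these lists had that order too, Nbl1, Ltbp3, Acvr1 and Acvrl1 among them, so it was not particular to Gata3. The share of all genes with this order was not computed. The Gata3 difference of 4.10 ± 2.00 did not pass (limma adjusted p = 0.455), and was 3.04 without Pik3caH1047R. Runx2, a runt-domain factor of the skeleton, was 5.91-fold higher (2.56 ± 0.60, adjusted p = 0.252), while Msx2 and Atoh8 differed by 1.03 ± 0.51 and 0.90 ± 0.27 (adjusted p = 0.462 and 0.303). Id4, the remaining Id gene, was well above background in Apc580D alone (−4.66). Dlx5 was not tested.

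The TGF-beta targets held 9 higher and 3 lower of 12 tested (median 0.55), of which 9 were well above background on all 5 arrays. Klf10, an early TGF-beta response gene, was 2.38-fold higher (1.25 ± 0.32, limma adjusted p = 0.272). Cdkn2b, which encodes the cell cycle inhibitor p15, and Tsc22d1 were 1.59-fold higher (0.67 ± 0.30, adjusted p = 0.426, and 0.67 ± 0.25, adjusted p = 0.363). Thbs1, which encodes thrombospondin 1, was above the control in Apc580D and below it on the other 3 arrays (−0.58 ± 0.71). Col1a1 is in both this list and the fibroblast markers. Bhlhe40 and Tnc were not tested, and no probe was named Bhlhe40. The E protein genes Tcf4, Tcf12 and Tcf3, whose products the Id proteins bind, differed by −0.41 ± 0.41, 0.39 ± 0.28 and 0.17 ± 0.27.

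**Figure D5:**
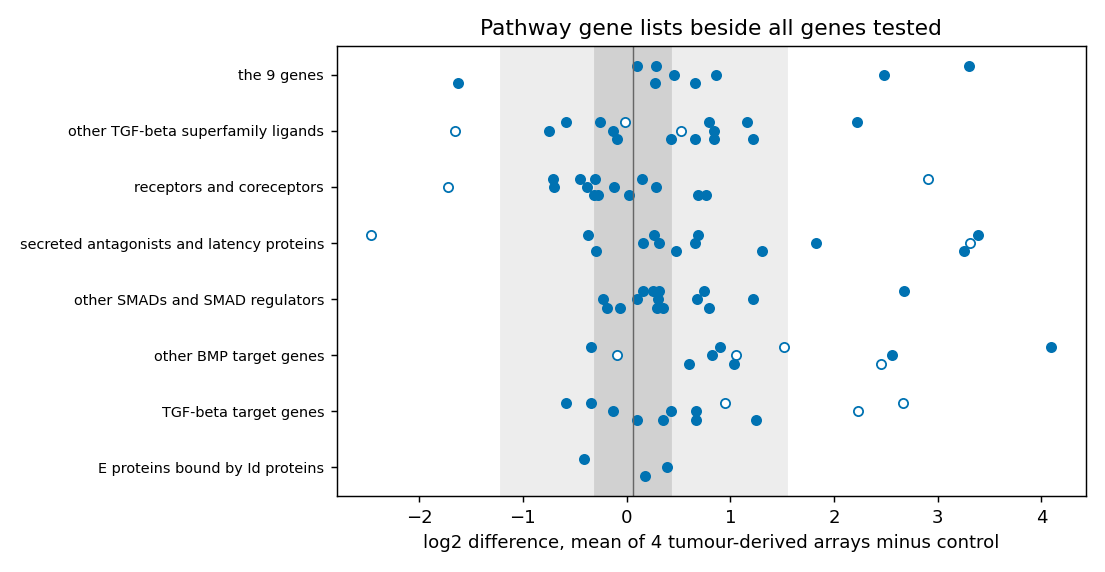
Log2 difference of the mean of the 4 tumour-derived arrays from the control (horizontal axis) for the 9 genes and each pathway list; each circle is 1 gene, filled where its probe was well above background on all 5 arrays. The line and the dark and light bands show the median (0.06), the span between the 25th and 75th percentiles (−0.30 to 0.43) and that between the 5th and 95th (−1.21 to 1.55) of all 17583 genes tested; Bmp4, Tgfb2 and Bmp7 lie outside the light band.

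Genes with the pattern across the 5 arrays most like each member were ranked over 13306 genes, those above background on all arrays that do not have clone-type names, by the root mean square distance between levels centred on their own mean. Id2 spans less than 1 log2 unit and was not matched. For Bmp4 the nearest were Pkp1, which encodes the desmosomal protein plakophilin 1 (distance 0.252), Pcolce2 (0.263) and Wnt7b (0.266). For Bmp7 they were Gkn2, the gastric secreted protein gastrokine 2 (0.248), H2ap (0.299) and Rasd2 (0.348), and for Tgfb2 Zfp462 (0.403), Wnt10a (0.406) and Npy (0.505). For Id1 they were Catsperz (0.0981), Plb1 (0.15) and Dhh (0.175). For Id3 they were Irf7, an interferon regulatory factor (0.243), and the interferon-induced genes Oas1f (0.324) and Oas1a (0.327). Few genes lay within 0.3 of these members: 5 for Bmp4, 2 for Bmp7, 0 for Tgfb2, 14 for Id1 and 1 for Id3. For the members with smaller differences the likeness separates little, since 1465 genes lay that near Bmp2 (nearest Lrrc59, Matk and Ammecr1), 2805 near Smad6 (Sart3, Adam15 and Lrrc3b) and 1786 near Smad7 (Pldi and Arhgap23 among the nearest). These distances rest on 5 arrays and are descriptions.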

How the data were processed

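One-colour Agilent arrays were read from the deposited scanner files, 1 for each of 5 samples. Spots had been quantified with Agilent Feature Extraction 11.0.1.1, per the submitters' processing notes. The deposited values are spot intensities, background-subtracted and spatially detrended per the file headers, with no normalization between arrays. A value table deposited by the authors holds log2 values. Over 53335 probes its differences between arrays followed those of the scanner files (slope 1, correlation 1). The baseline subtracted from each of its probes is unknown, and its column medians were −0.06, 0.07, 0.03, −0.08 and 0.02 (control, hairpins 1 and 2, Apc580D, Pik3caH1047R).

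The log2 processed signal of each array was reduced by its 75th percentile. Control spots and 78 to 114 outlier spots per array were left out, replicate spots were averaged, and 32 of 56605 probes without a value on every array were dropped. Accessions were matched to symbols through a RefSeq table of GRCm38.p6: 34549 probes matched 1 symbol and 22024 none. The file headers name another build, so no probe positions are given. A gene was represented by its brightest probe, and tested if any probe was well above background on at least 1 array. Tests were limma 3.58.1 in R 4.3.3 (lmFit, eBayes, two-sided), checked on simulated data, with Benjamini-Hochberg adjustment over 17583 genes and a threshold of 0.05. The all-tumour fit had 3 residual degrees of freedom, with the control assumed to vary like the tumours. The genotype fit had 1, from the hairpin pair, which stands in for the groups of 1 sample. Folds between 2 arrays have no test. A lower bound is taken against the higher of the dim probe's signal and the lowest signal well above background on that array. The number of arrays limits the precision.

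Named genes are the 9 members, up to 4 genes per list with the largest all-tumour differences among those above background on all arrays, and the 3 nearest patterns per member. A gene that this rule names for Smad7 is not reported here. Id4, and the genes used to check labels and markers, were named outside this rule. The members and lists were chosen with earlier results of these data known. There were 14 alternatives to the processing.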

Additional observations from a re-analysis of the deposited data

Results flagged for a closer look

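Id1 stood out because the shCdh1 arrays and the 2 other tumours lay on opposite sides of the control. Apc580D exceeded the shCdh1 mean by 1.44 on the log2 scale and Pik3caH1047R exceeded it by 1.51. These single-array differences are also the contrast of shCdh1 with the other tumours after 1 array is left out. That contrast was −1.44 without Pik3caH1047R and −1.51 without Apc580D. Their mean was tested as shCdh1 against the other tumours (−1.48, limma adjusted p = 0.623) and did not pass. The arrays on each side of this contrast were also on different slides, apart from the control, which shared a slide with shCdh1.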

How the results depend on the processing

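None of the 9 genes passed limma's threshold under any alternative that gave a p-value, and 516 of 540 recomputed values of these genes kept their direction. Many of the 540 could not change. For these genes the estimate is identical where only the filter or floor for dim genes differs. It is also identical where the array left out is not in the contrast, or where the probes of a 1-probe gene are averaged. Leaving out 1 hairpin array gives the genotype fit no p-value. The number of genes passing in the all-tumour comparison was less stable: 21 as reported, 48 with normexp background correction, 49 with dim signals raised to a floor, 7 when a gene had to be above background on every array, 0 with slide as a block, and 0 to 19 when 1 tumour-derived array was left out (0 without hairpin 1, hairpin 2 or Pik3caH1047R, where 2218, 2032 and 1852 genes had an unadjusted p below 0.05, and 19 without Apc580D). Median centring moved the median of all genes from 0.06 to −0.11, and the median of the 9 from 0.46 to 0.28. Normexp correction lowered the Tgfb2 difference in all tumours from 3.30 to 2.08. The differences that changed sign were small or rested on 1 array. With median centring these were Id1 in all tumours (−0.0716), Bmp2 in shCdh1 (−0.0376) and Apc580D (−0.2185) and Id2 in Apc580D (−0.0811) against control, and Smad6 in shCdh1 against the other tumours (0.0101). Bmp2 in Apc580D was −0.0033 with normexp and −0.0304 in the authors' deposited table. Smad6 in shCdh1 against the other tumours was 0.0025 with quantile normalization and 0.0655 with normexp. Slide as a block turned Id1 to −0.64 and Id3 to −0.47 in all tumours. With 1 array left out, the all-tumour difference ranged from −0.16 to 0.43 for Id1 and from −0.14 to 0.73 for Id3. Against control in shCdh1 it ranged from −0.19 to 0.44 for Bmp2 and from −1.08 to 0.13 for Id3. In shCdh1 against the other tumours it ranged from −0.76 to 0.11 for Bmp2, −1.76 to 1.21 for Bmp7, −1.28 to 1.99 for Tgfb2, −0.17 to 0.15 for Smad6 and −0.49 to 0.33 for Smad7. The cause of these changes was not tested. No paired analysis was possible because only the shCdh1 group has more than 1 replicate. With 1 control array, its own spread is unknown.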
